A study of Homo sapiens with 4 samples.

Results

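The genes described here encode the proteins of the U2 small nuclear ribonucleoprotein (snRNP), the factors that work beside it, and the SR proteins, and they were examined as messenger RNAs in an experiment that pulled down RNA with an antibody against SF3B6. They were chosen by name, 36 in all: 20 genes of SF3b, SF3a, the U2 snRNP and its associated factors, and 16 genes of SR and SR-related proteins. Of these, 35 had a row among the 18276 genes of the deposited table, and SNRPB2 was not analysed here. A total of 16 passed the expression filter and were tested, among 3668 tested genes.

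The material was MDA-MB-231, a cell line of human triple-negative breast cancer grown in culture. The group called IP holds 2 libraries of RNA recovered with the SF3B6 antibody from cells that had been irradiated and whose lysate had been digested with DNase and micrococcal nuclease, and the group called input holds 2 libraries labelled as the RNA input control. No knockdown or other perturbation separates these groups. The cell line entry of 3 libraries gives other final digits, while all 4 titles name MDA-MB-231. An IgG antibody appears in the protocol, but input is the reference used here, so RNA held by beads or by any antibody is counted with RNA bound to SF3B6.

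The U2 snRNP recognises the branch point near the end of an intron. SF3b and SF3a are the protein complexes that hold this RNA duplex, U2AF marks the pyrimidine tract and the 3′ splice site beside it, and SR proteins, named for their serine and arginine repeats, bind exons and help to bring these factors in. Many genes of SR proteins control their own messengers through exons or introns that lead to decay, and SRRM2 and SON are large SR-related proteins that form the core of nuclear speckles. SF3B6 is a small SF3b subunit that lies close to the branch point, so these messengers encode both the antibody's target and its working partners.

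Counts in genes came to 55492 and 30431 in IP 1 and IP 2 and to 317190 and 519836 in input 1 and input 2. Levels below are given as CPM, counts scaled to 1000000 in tested genes of a library after TMM (edgeR). A floor of 3 counts, set here as a rough guide for reading a count of 0, stood at 66.1, 131, 10.6 and 6.12 CPM in IP 1, IP 2, input 1 and input 2. It is not a strict maximum and differs from the exact intervals given below. All levels are averages over a culture, so fewer cells with a messenger and less of it per cell cannot be told apart. Among 7 markers of this mesenchymal line, VIM had 286 and 532 input counts, CD44 had 52 and 94, and SPARC had 0 and 2. The summed level of these 7 ran from 1607 to 1830 CPM in IP and from 1720 to 1851 CPM in input. Of 7 luminal markers, KRT8 (171 and 253 input counts), KRT18 (93 and 175) and ERBB2 (76 and 147) had reads, GATA3 had 4 and 15, and ESR1, PGR and FOXA1 were not analysed here. The luminal sum ran from 859 to 1046 CPM in IP and from 1203 to 1210 CPM in input, and its part in the results was not tested. Of 6 blood cell markers, 2 had a row, each with 1 count in IP 1 and 0 elsewhere.

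After TMM scaling, the messengers of the splicing machinery had a summed level in the IP within counting error of that in the input. By library totals, which are the counts in tested genes without TMM, they were lower. Together the 35 listed messengers had 240 IP counts and 2847 input counts, where the scaled libraries would give 251 IP counts at an equal share. Their summed level was 3765 and 3007 CPM in IP 1 and IP 2 and 3561 and 3740 CPM in input 1 and input 2. On this scale the IP libraries lay on both sides of the inputs. The ratio of pooled counts was 0.955, with an exact 95% interval from 0.834 to 1.09 that covers counting error only. As a share of all gene counts they held 0.308% and 0.227% in IP and 0.319% and 0.353% in input, so that both IP libraries lay below both inputs. With library totals over tested genes in place of TMM the ratio was 0.803 (0.701 to 0.917). The median log2 fold change of all tested genes then moved from -0.06 to -0.31.

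None of the 16 tested messengers passed edgeR's quasi-likelihood test after Benjamini-Hochberg adjustment over all tested genes, against 4.06% of all 3668 (149 genes; 2.7% higher and 1.36% lower in IP). The smallest adjusted p was 0.126, and 2 of the 16, SRSF6 and SRSF9, had an unadjusted p under 0.05, against 15.6% of all tested genes. DESeq2 called 0 of the 8 members to which it gave an adjusted p, against 1.92% of the 2032 genes to which it gave one. The median log2 fold change, IP minus input, was 0.12 over the 16 and -0.06 over all tested genes, with 10 of the 16 above 0 and 6 below. Both IP libraries lay above both inputs for 5 of the 16 and below both for 4, where the shares over all tested genes were 20.9% and 28.5%. By library totals these were 4 and 6 of the 16, against 13.7% and 39.9% of all tested genes: SF3B3 then overlapped between groups, and SRRM2 and SON lay below both inputs. These outcomes rest on the scaling: with relative library totals recovered from the FPKM table, 7 of the 16 were lower in IP, as were 57.2% of all tested genes. By limma on the FPKM values, 9 were lower on the log2(FPKM + 1) scale and 7 on the log2(FPKM + 0.1) scale, where 69.5% and 50.8% of all tested genes were.

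**Figure D1:**
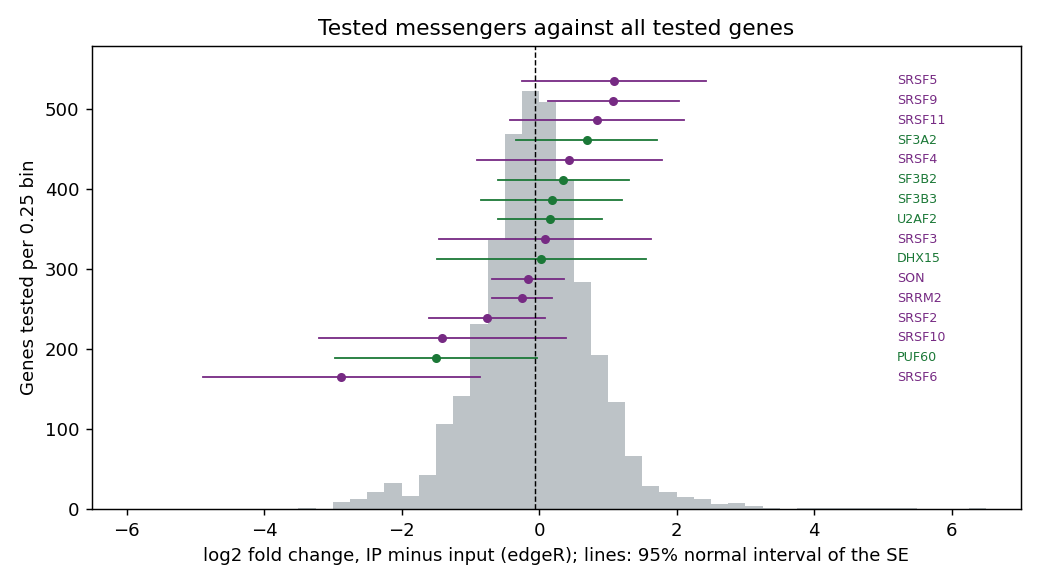
Histogram of the log2 fold change (IP minus input, edgeR) of all 3668 tested genes in bins of 0.25, with the 16 tested messengers drawn over it as points whose height only separates them, each with the 95% normal interval from its SE; green marks U2 and SF3 genes and purple SR genes, and the dashed line is the median of all tested genes. The messengers spread from SRSF6 at -2.88 to SRSF5 at 1.09 around a median of 0.12.

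The SF3b subunits, which surround the branch point duplex, gave 25 IP counts and 266 input counts over 7 messengers, a ratio of 1.07 (exact 95% interval 0.677 to 1.61). SF3B2, which with SF3B4 contacts the intron upstream of the branch point, lies on chromosome 11 from 66052364 to 66069308 (GRCh38) and had 9 and 3 counts in the IP libraries, and 30 and 77 in those of input. That is 198 and 131 CPM against 106 and 157 CPM, so the groups overlapped. Its log2 fold change was 0.35 ± 0.49 (SE; edgeR adjusted p = 0.818). SF3B3, a large scaffold subunit (chromosome 16, 70523816 to 70577668), had 6 and 3 IP counts and 32 and 58 input counts, or 132 and 131 CPM against 113 and 118 CPM. Both IP libraries lay just above both inputs on this scale, and overlapped them by library totals, with a log2 fold change of 0.18 ± 0.52 (edgeR adjusted p = 0.931).

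The remaining SF3b messengers were too sparse to test. SF3B1, the scaffold whose ring of repeats closes around the branch point and which is often mutated in blood cancers, had 2 and 0 IP counts and 12 and 18 input counts. The ratio of SF3B1 was 0.756, with an interval from 0.0875 to 2.98 that holds both a strong loss and a clear gain. SF3B4 had 0 and 0 IP counts and 11 and 13 input counts, where 2.12 IP counts would match its input share, so a loss was not detectable at this depth. SF3B5, a small subunit, had 2 and 0 IP counts against 3 and 9, and PHF5A, which forms part of the branch point pocket, had 0 and 0 against 0 and 2. The messenger of the antibody's target, SF3B6 on chromosome 2 (24067586 to 24076326), was at 0 in all but input 2, where it had 1 count. These data therefore hold no measure of how SF3B6 recovers its own messenger.

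SF3a works with SF3b in the U2 snRNP, and its 3 messengers gave 16 IP and 132 input counts, a ratio of 1.37 (0.763 to 2.32). SF3A2 (chromosome 19, 2236824 to 2248655) had 6 and 5 counts in IP, against 23 and 54 in the inputs, or 132 and 218 CPM against 80.9 and 110 CPM. Both IP values lay above both inputs, but the log2 fold change of 0.69 ± 0.52 did not pass (edgeR adjusted p = 0.560). The other 2 stood on opposite sides of an equal share. SF3A3 had 3 and 1 IP counts against 4 and 10, a ratio of 3.24 (0.776 to 10.3), and SF3A1 had 1 and 0 against 13 and 28, a ratio of 0.276 (0.00683 to 1.63). Both intervals include 1. Of the proteins specific to the U2 snRNP itself, SNRPA1 had 3 and 0 IP counts against 7 and 5, a ratio of 2.83 (0.513 to 10.5).

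The 8 U2-associated factors gave 31 IP counts and 397 input counts, a ratio of 0.885 (0.593 to 1.28). U2AF2, the large U2AF subunit that binds the pyrimidine tract (chromosome 19, 55655035 to 55674716), was the most counted of them, with 12 and 4 IP counts against 55 and 108 in input. Its levels of 264 and 174 CPM in IP enclosed the input values of 194 and 220 CPM. The log2 fold change of U2AF2 was 0.15 ± 0.39 (edgeR adjusted p = 0.915), and the interval of its count ratio ran from 0.621 to 1.86. DHX15, a helicase that takes part in spliceosome release (chromosome 4, 24527475 to 24584554), gave 3 and 1 IP counts, with 19 and 25 from the inputs, or 66.1 and 43.6 CPM against 66.8 and 51.0 CPM. These overlap, and the log2 fold change was 0.03 ± 0.77 (edgeR adjusted p = 0.992).

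PUF60, a relative of U2AF2 that also binds pyrimidine tracts (chromosome 8, 143816344 to 143829315), stood lowest of the 3 tested in this group. It had 3 and 0 counts in IP, against 38 and 59 in the inputs, or 66.1 and 0 CPM against 134 and 120 CPM, so both IP libraries lay below both inputs. The ratio of its pooled counts was 0.351 with an interval from 0.0711 to 1.06, and edgeR's adjusted p was 0.324. The small U2AF subunit gene U2AF1, which reads the end of the intron, had 1 and 0 IP counts against 3 and 3. Its near-identical copy U2AF1L5 had 1 and 0 against 2 and 6, and no source used here says how reads were divided between them. RBM17 (1 and 1 IP counts against 11 and 12), SUGP1 (2 and 1 against 14 and 12), DDX46 (2 and 0 against 9 and 22) and HTATSF1 (0 and 0 against 3 and 4) were not tested. DDX46 and HTATSF1 act on the U2 snRNP as it meets the branch point, and SUGP1 works with DHX15. Count ratio intervals of all 4 include 1.

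**Figure D2:**
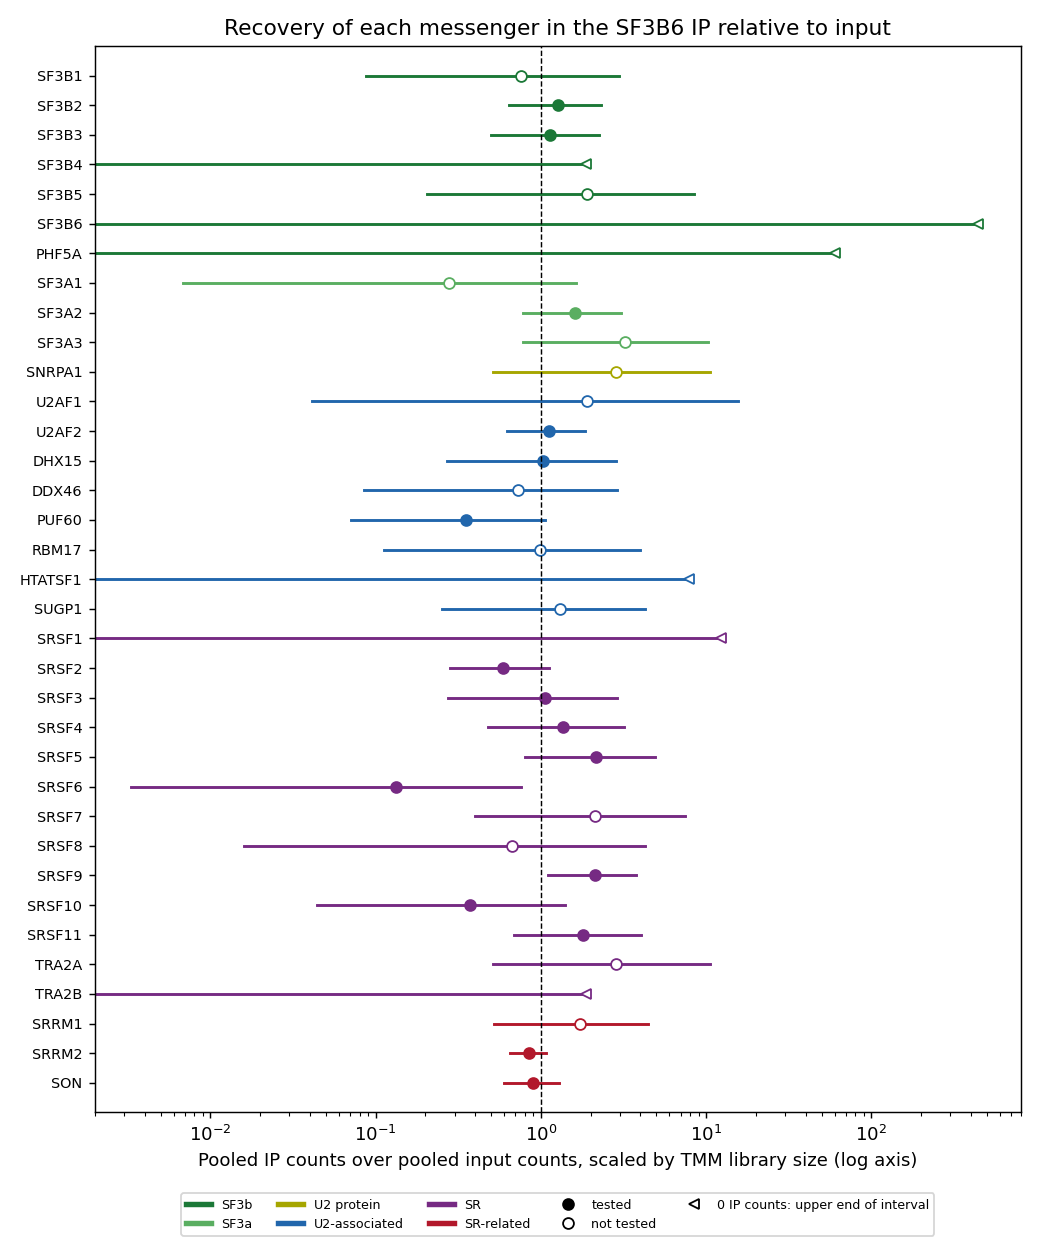
Ratio of pooled IP counts to pooled input counts for each of the 35 listed messengers, scaled by TMM library sizes, on a log axis; lines are exact 95% intervals (counting error only), filled points were tested, open points were not, and triangles mark the upper end where no IP count was seen. On this scale the intervals of 33 messengers include 1, SRSF6 lies wholly below 1 and SRSF9 wholly above it. Library totals would lower every ratio together with its interval.

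The 13 SR protein messengers proper gave 58 IP counts where an equal share would give 58.3, and 661 input counts. Their summed level was 859 and 828 CPM in IP against 858 and 850 CPM in input. The pooled ratio was 0.994 (0.747 to 1.30), and by library totals it was 0.836 (0.628 to 1.09). Of the 8 tested, SRSF5, SRSF9 and SRSF11 lay above both inputs in both IP libraries. SRSF2, SRSF6 and SRSF10 lay below both. Over all tested genes 20.9% lay above and 28.5% below, and none of the 8 passed edgeR's test.

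SRSF6, an SR protein with a pair of RNA-binding domains (chromosome 20, 43457896 to 43464243), had 1 and 0 counts in IP, against 35 and 51 in the inputs. In CPM that is 22.0 and 0 against 123 and 104, and an equal share would have given 7.59 IP counts. Its count ratio was 0.132 with an interval from 0.00330 to 0.754, and it ranked 19th from the lowest log2 fold change among the 3668 tested genes. The difference did not pass after adjustment (edgeR adjusted p = 0.126), nor in any other edgeR fit on gene count scales in which it was tested, where the adjusted p ran from 0.0761 with library totals to 0.397 without IP 1. With FPKM totals SRSF6 was lower in IP (edgeR adjusted p = 0.00111), as most tested genes were.

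SRSF9, a smaller member of the family (chromosome 12, 120461672 to 120469748), stood on the other side. It had 9 and 5 counts in IP, against 21 and 54 in the inputs, or 198 and 218 CPM against 73.9 and 110 CPM. Both IP values lay above both inputs. The count ratio was 2.12 (1.10 to 3.77), and the log2 fold change of 1.08 ± 0.49 did not pass (edgeR adjusted p = 0.262). With the FPKM totals SRSF9 was at -0.50, where the median of all tested genes was -1.65. By the count intervals of SRSF6 and SRSF9 on the TMM scale, 1 of the 16 tested messengers was below and 1 above an equal share. On that scale 7.09% and 8.56% of all tested genes were. Library totals lower every such ratio, as for the pooled ratio of the 35 listed messengers (0.955 to 0.803). Intervals of single genes by library totals were not computed, so this split holds for TMM only.

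SRSF2, which activates exons and is mutated in myeloid disease (chromosome 17, 76734115 to 76737411), was the most counted SR protein messenger. It had 7 and 3 IP counts and 76 and 115 input counts, or 154 and 131 CPM against 267 and 234 CPM. Both IP values lay below both inputs. The log2 fold change was -0.75 ± 0.43 (edgeR adjusted p = 0.393), and 16.9 IP counts would have matched its input share. MFSD11, which overlaps SRSF2 by 778 bases, had 5 and 1 IP counts against 29 and 42. Where strand was not used, reads of that stretch cannot be told apart. SRSF10, which represses splicing when dephosphorylated (chromosome 1, 23964347 to 23980327), gave 2 and 0 IP counts, with 22 and 39 from the inputs, a ratio of 0.372 (0.0440 to 1.40, edgeR adjusted p = 0.477).

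SRSF5 (chromosome 14, 69767142 to 69772005) had IP counts of 3 and 4 and input counts of 16 and 21, or 66.1 and 174 CPM against 56.3 and 42.8 CPM. Its log2 fold change of 1.09 ± 0.68 did not pass (edgeR adjusted p = 0.451), and was 0.37 without IP 2 and 1.64 without IP 1. SRSF11 (chromosome 1, 70205696 to 70253052) had IP counts of 4 and 3 and input counts of 15 and 29, at 0.85 ± 0.65 (adjusted p = 0.565). SRSF5 and SRSF11 each rest on 7 IP counts. SRSF3, the smallest of the SR proteins (3 and 1 IP counts against 12 and 31; 0.09 ± 0.79, edgeR adjusted p = 0.977), and SRSF4 (5 and 1 against 14 and 36; 0.44 ± 0.68, adjusted p = 0.848) overlapped between groups. SRSF4 and SRSF9 overlap the genes MECR and GATC, which had 1 and 2 counts in IP 1, 0 in IP 2, and 19 and 23 over both inputs.

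The other 5 SR protein messengers were not tested. SRSF1, the founding SR protein, had 0 and 0 counts in IP, against 3 and 2 in the inputs, and SRSF7 had 3 and 0 against 4 and 12. SRSF8 had 0 and 1 against 8 and 9. The paired splicing activators TRA2A and TRA2B had 2 and 1 IP counts against 7 and 5, and 0 and 0 against 11 and 13. The ratio of TRA2A was 2.83 (0.513 to 10.5), and the upper end for TRA2B was 1.88. No difference from an equal share was detectable for any of these 5 at this depth.

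**Figure D3:**
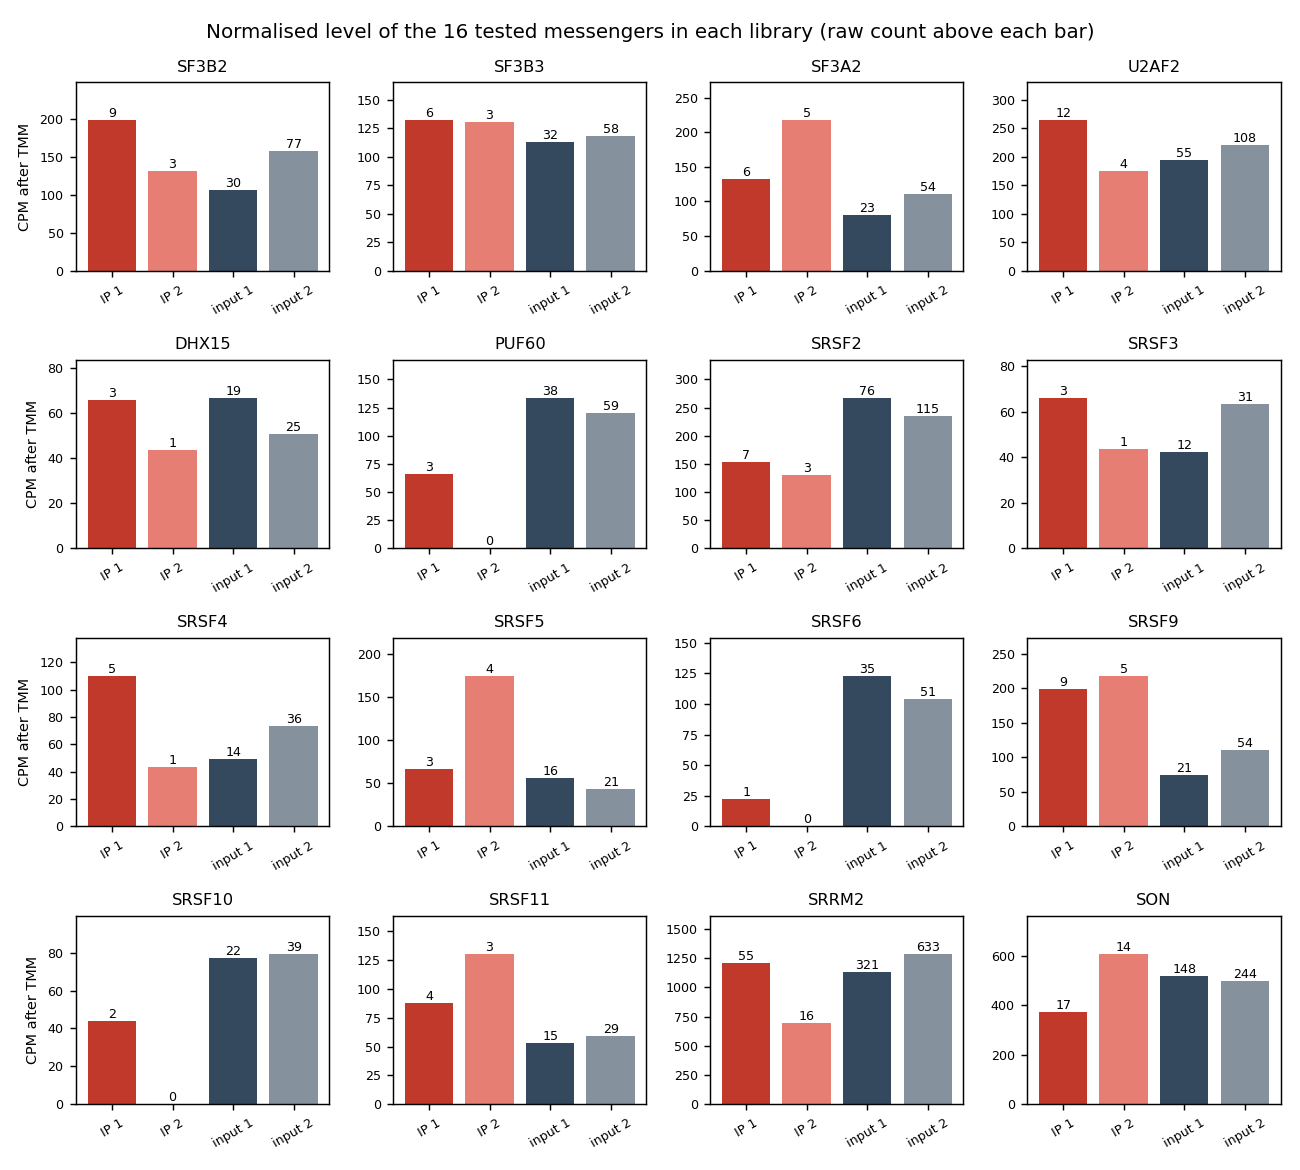
Level of each of the 16 tested messengers in CPM after TMM, with 1 panel per gene, 1 bar per library (red shades IP, grey shades input) and the raw count above each bar; vertical scales differ between panels. Both IP bars lie below both input bars for PUF60, SRSF2, SRSF6 and SRSF10 and above them for SF3B3, SF3A2, SRSF5, SRSF9 and SRSF11.

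SRRM2 and SON, the large nuclear speckle proteins, carried 42.5% of the IP counts and 47.3% of the input counts of all 35 messengers. SRRM2 (chromosome 16, 2752638 to 2771412) had 55 and 16 counts in IP, against 321 and 633 in the inputs. In CPM that is 1211 and 697 against 1129 and 1290, so IP 1 lay between the inputs and IP 2 below both. Its mean was 954 ± 363 CPM in IP and 1210 ± 114 CPM in input (SD, n = 2 libraries each), a log2 fold change of -0.25 ± 0.22 (edgeR adjusted p = 0.642). Without IP 1 it was at -1.02 (adjusted p = 0.124). The count ratio of SRRM2 was 0.843 with an interval from 0.653 to 1.07. The antisense gene SRRM2-AS1 had 0 and 0 IP counts and 2 and 4 input counts.

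SON (chromosome 21, 33543038 to 33577481) had 17 and 14 counts in IP, against 148 and 244 in the inputs, or 374 and 610 CPM against 521 and 497 CPM. Here IP 1 lay below the inputs and IP 2 above them, whereas for SRRM2 IP 2 was the lower of the IP libraries. The means were 492 ± 167 and 509 ± 16.5 CPM (SD, n = 2 each), with a log2 fold change of -0.16 ± 0.27 (edgeR adjusted p = 0.865) and a count ratio of 0.896 (0.601 to 1.29). SON was at 0.048 without IP 1 and at -0.53 without IP 2. SRRM1, a related matrix protein of the exon junction, had 4 and 1 IP counts against 12 and 21, a ratio of 1.72 (0.523 to 4.43), and was not tested.

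**Figure D4:**
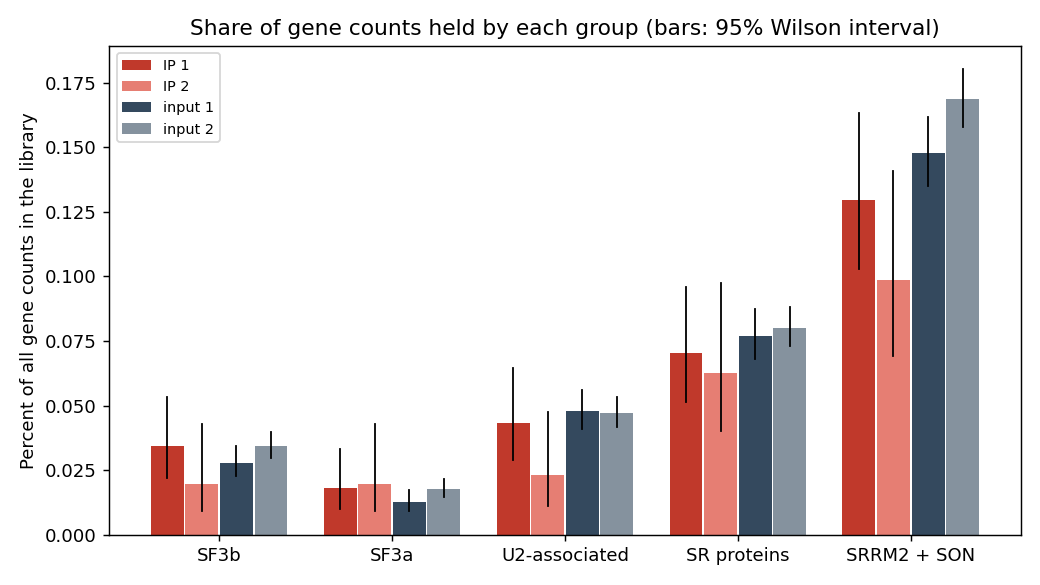
Percent of all gene counts of each library held by SF3b, SF3a, U2-associated and SR protein messengers and by SRRM2 with SON, with 95% Wilson intervals (counting error only) as black lines. The share of SRRM2 with SON was 0.130% and 0.0986% in the IP libraries and 0.148% and 0.169% in the inputs. For this pair only the intervals of IP 2 (0.0691% to 0.141%) and input 2 (0.158% to 0.180%) lie apart. The interval of IP 1 overlaps those of both inputs, and that of IP 2 overlaps that of input 1. Within each of the other groups IP and input intervals overlap.

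As sets, the 20 U2 and SF3 genes (19 listed) stood at 1233 and 828 CPM in IP against 1010 and 1060 CPM in input. Their mean was 1030 ± 286 CPM in IP and 1035 ± 35.5 CPM in input (SD, n = 2 each). The 16 SR genes stood at 2532 and 2179 CPM against 2551 and 2680 CPM, means of 2355 ± 250 and 2616 ± 91.7 CPM. Both SR sums were below both inputs in IP, by a log2 ratio of means of -0.15, and of -0.0046 without SRRM2. No test was made of these sums, and with 2 against 2 libraries an exact two-sided permutation test cannot give a p below 0.333. Without IP 1 the log2 ratios were -0.54 for the U2 and SF3 set and -0.48 for the SR set.

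Per length, in the deposited FPKM, SRRM2 and SRSF2 were the most abundant of these messengers in input, at 11.7 and 19.2 FPKM and 12.04 and 15.17 FPKM in input 1 and input 2. Their ranges overlap, so their order is not settled. U2AF2 (6.30 and 10.3), SON (5.47 and 7.51) and SF3A2 (3.89 and 7.60) followed, with overlapping ranges, and 15 of the 35 had a mean input level under 1 FPKM. SF3B6 was listed at 0 and 0.35 FPKM and U2AF1 at 0.13 and 0.11 FPKM. In IP, SRRM2 (5.60 and 2.46), SF3A2 (2.84 and 3.58), SRSF9 (3.21 and 2.70), U2AF2 (3.85 and 1.94) and SRSF2 (3.10 and 2.01) led, and 6 of the 35 were listed at 0 in both libraries. SRSF6 was in place 8 of 35 by mean input FPKM and place 25 by mean IP FPKM. These places are orders within a group of libraries and do not compare IP with input.

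Other genes of the spliceosome gave no call either. This list held 68 genes, among them those of U1, U4/U6 and U5 snRNPs, core Sm and LSm rings, catalytic helicases and kinases of SR proteins. Other splicing factors, such as PRPF19, SF1 and the minor spliceosome protein RNPC3, were also on it. Of these, 67 were listed and 24 tested. In edgeR's test 0 passed the adjusted threshold of 0.05, against 4.06% of all tested genes. An unadjusted p under 0.05 was seen for 3, against 15.6% of all tested genes. DESeq2 called 0 of the 9 to which it gave an adjusted p, against 1.92% of all genes given one. The list's median log2 fold change was 0.10, and its pooled ratio was 0.962 (0.843 to 1.09), or 0.808 (0.709 to 0.919) by library totals. SNRNP70, the U1 protein, had 27 and 11 IP counts against 119 and 206 (0.40 ± 0.25, edgeR adjusted p = 0.455). PRPF8, the scaffold of the catalytic centre, had 7 and 7 against 102 and 183 (-0.84 ± 0.36, adjusted p = 0.225). DDX39B, a helicase that works with U2AF2, had 14 and 6 against 89 and 193 (-0.31 ± 0.33, adjusted p = 0.734).

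A second list held 40 further proteins with RS repeats or a place in nuclear speckles. SRRM4 was not analysed here, and AKAP17A was listed on both chromosomes X and Y. From this list 19 were tested and 1 passed, with 6 at an unadjusted edgeR p under 0.05, against 15.6% of all tested genes. SCAF1, an SR-related protein that binds RNA polymerase II, had 36 and 18 counts in IP, against 128 and 237 in the inputs, or 793 and 784 CPM against 450 and 483 CPM. Its log2 fold change was 0.75 ± 0.22 (edgeR adjusted p = 0.0491), just inside the threshold that 2.7% of all tested genes passed as higher in IP. The call was lost with upper quartile scaling (edgeR adjusted p = 0.120), library totals (0.265), no filter (0.876) and DESeq2 (0.305), and in each fit without 1 library (0.637 without IP 1, 0.208 without IP 2, 0.287 without input 1 and 0.280 without input 2). With a replicate block it was lost as well (edgeR adjusted p = 0.124). SCAF1 kept the call when only genes with at least 50 counts in 2 libraries were tested (edgeR adjusted p = 0.0044). With FPKM totals SCAF1 stood at -0.87 (edgeR adjusted p = 0.115). SUGP2, a G-patch protein, had 17 and 18 against 98 and 143 (0.72 ± 0.30, edgeR adjusted p = 0.203), and ACIN1, of the exon junction complex, had 12 and 8 against 79 and 129 (0.12 ± 0.34, adjusted p = 0.925). The summed level over the list's 40 rows was 4514 and 4052 CPM in IP and 3226 and 3200 CPM in input. Both IP libraries lay above both inputs, while the median log2 fold change of the genes tested was 0.12. The ratio of the list's pooled counts was 1.36 (1.20 to 1.53), and 1.14 (1.01 to 1.29) by library totals. That difference between this list and the 35 messengers was not tested.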

How the data were processed

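RNA immunoprecipitation with an SF3B6 antibody and input RNA of MDA-MB-231 cells were compared in 2 libraries each, which the design text calls biological replicates. The authors deposited raw read counts per gene and a second table with FPKM values, both over 18276 genes. The submitters' processing notes name hg38, HISAT2 and HOMER. For the counter, the strand setting and reads with several matches, no source used here gives the method. Coordinates are RefSeq's (GRCh38.p14), in which all 35 listed genes matched by symbol.

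Counts were fitted for all genes with edgeR 4.0.16 (R 4.3.3): default expression filter, TMM (factors 0.968, 0.860, 1.06 and 1.13 for IP 1, IP 2, input 1 and input 2), quasi-likelihood test on group, Benjamini-Hochberg adjustment at 0.05. SE is the log2 fold change over the root of F. Because spread is shared over all genes in this fit, an SE may understate how far a single gene's libraries lie apart. Pooled count ratios carry exact binomial intervals (scipy 1.17.1), computed at effective library sizes. They and Wilson intervals cover counting error only, since reads without molecular identifiers are not independent molecules. On simulated counts for 3668 genes of this comparison, 85% of 40 genes with a 4-fold rise, 37.5% with a 2-fold rise, 15% with a fall to 0.5 of the level and 45% with a fall to 0.25 of it were called.

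Alternatives were upper quartile scaling, library totals, relative totals recovered from counts and FPKM (genes with at least 20 counts and 1 FPKM), no filter, at least 50 counts in 2 libraries, DESeq2 1.42.0, limma 3.58.1 on log2(FPKM + 1) and log2(FPKM + 0.1), a replicate block and leaving out each library. The genes and lists were chosen with earlier results of these data known. Named are every tested gene of the set, the 3 with the most input counts in each role, and from the other lists those called and the 3 with the most input counts.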

Additional observations from a re-analysis of the deposited data

How the results depend on the processing

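No member was called in the main edgeR fit, and 0 were called with upper quartile scaling, library totals, no filter (35 tested), at least 50 counts in 2 libraries (4 tested) or DESeq2. The fits that left out 1 library tested 26 members without IP 1, 27 without IP 2, 4 without input 1 and 4 without input 2. With FPKM totals, log2(FPKM + 1) and log2(FPKM + 0.1), 7, 9 and 7 of the 16 tested members were lower in IP. Over all tested genes, 57.2%, 69.5% and 50.8% were lower. Also lower were 11, 17 and 12 of the 24 other spliceosome genes tested (0 called in the main fit). Of the 19 other RS repeat and speckle genes tested, 8, 10 and 5 were lower. That last list, with 1 call in the main fit, had 0 with upper quartile scaling, library totals, no filter, DESeq2 and the replicate block, and 0 to 1 when 1 library was left out. These scalings move all genes: over the same 3668 genes the median log2 fold change of all tested genes was -0.06 in the main fit, -0.19 with upper quartile scaling, -0.31 with library totals, -1.65 with FPKM totals and -1.05 and -1.66 on the 2 FPKM scales.

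No source used here says whether the replicate numbers pair the libraries. The correlation of same-numbered deviations was 0.000521, but with so few IP counts per gene, counting error could hide a pairing. This value therefore cannot decide it. With the replicate block 0 members were called, SCAF1 lost its call (0.77, edgeR adjusted p = 0.124), and 68 genes of all were higher and 22 lower against 99 and 50 without it.

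The summed log2 ratio of the U2 and SF3 set, -0.0061 in the main fit, was -1.60 with FPKM totals and ran from -0.54 without IP 1 to 0.16 without IP 2. The SR sum, -0.15, was -0.41 with library totals and -1.77 with FPKM totals, and ran from -0.48 without IP 1 to -0.074 without input 2.

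Members above 0 fell below it with FPKM totals, at -1.25 for SF3B2, -1.41 for SF3B3, -0.87 for SF3A2, -1.46 for U2AF2, -1.55 for DHX15, -1.49 for SRSF3, -1.15 for SRSF4, -0.48 for SRSF5, -0.50 for SRSF9 and -0.73 for SRSF11. SCAF1 was at -0.87. In the same order the values were -0.74, -0.68, -0.63, -1.27, -0.67, -0.64, -0.54, -0.25, -0.34, -0.31 and -0.80 on the log2(FPKM + 1) scale. They were -1.20, -1.28, -0.75, -1.52, -1.49, -1.34, -1.19, -0.45, -0.40, -0.60 and -0.85 on the log2(FPKM + 0.1) scale. With no filter, where scaling was computed over all 18276 genes, SF3B2 (-0.12), SF3B3 (-0.29), U2AF2 (-0.32), DHX15 (-0.43), SRSF3 (-0.39) and SRSF4 (-0.030) turned, and with library totals SF3B3 (-0.068), U2AF2 (-0.092), DHX15 (-0.21) and SRSF3 (-0.16) did. Upper quartile scaling turned DHX15 (-0.10) and SRSF3 (-0.046), the replicate block DHX15 (-0.077), DESeq2 DHX15 (-0.0010), and at least 50 counts SON (0.047). Leaving out 1 IP library gave -0.29 to 0.43 for SF3B2, -0.047 to 0.090 for SF3B3 and -0.60 to 0.12 for DHX15. It gave -0.56 to 0.16 for SRSF3 and -0.78 to 0.67 for SRSF4. None of these was tested when an input library was left out. Leaving out any 1 library gave -0.49 to 0.28 for U2AF2 and -0.53 to 0.048 for SON. Beyond the shift of all genes with scaling, the cause was not tested.

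Depth limits these values, since the most counted member outside SRRM2 and SON had 16 IP counts. A fit without 1 library assumes that the lone library varies like the other group.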
